A study of Homo sapiens with 2 samples.

Results

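The introns described here are those that RefSeq itself annotates both ways: 1 transcript splices the intron out, and another transcript on the same strand carries the whole intron inside an exon, with at least 1 base to spare on both sides. Of 200763 introns of RefSeq transcripts (accessions starting NM_ or NR_) on chromosomes 1 to 22, 950 met this rule, in 737 genes. By length 139 were under 100 bases, 535 were 100 to 500 bases and 276 were over 500 bases, with a median of 266.5 bases. The data are poly(A) RNA from HCT116, a human colorectal carcinoma line in which knockdown of USP49, a deubiquitinase of histone H2B, can be switched on by tetracycline drugs. There was 1 library labelled control and 1 labelled USP49 knockdown (the knockdown-labelled library in what follows). Both carry the same inducible system and the same protocol text, with harvest 36 hours after doxycycline, so the labels do not say whether the control received the drug, nor whether the line is a single clone. USP49 and co-transcriptional splicing of pre-mRNA have been linked, so the question was whether introns with an annotated retained form were kept in mRNA to different extents in both libraries. With 1 library per group there is no replicate check, no test and no p-value. Every interval is taken within 1 library, mainly from its FPKM bounds, and covers no spread between replicates.

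Splicing removes an intron when the spliceosome recognises its 5′ and 3′ splice sites, usually GT at its start and AG at its end. An intron that stays in a poly(A) transcript is called retained. In a coding region, a retained intron adds amino acids if it keeps the reading frame open, while a stop codon within it ends the protein early and can expose the transcript to nonsense-mediated decay. Retained introns are known in genes of SR proteins and of CLK kinases, which control splicing themselves. An annotated pair of this kind can also be the reverse case, in which the form with the intron is the common one and a stretch of exon is removed from a minor form.

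Letters of 811 of the 950 introns (85.4%) were read from GENCODE release 29 transcripts of GRCh38, after a match by gene, intron length and a neighbouring exon or intron of the same length. Of these, 777 (95.8%) began with GT and ended with AG, 27 were GC-AG and 3 were AT-AC. For 416 introns the reading frame could be followed from the coding exon before the intron: 87 kept an open frame, 291 held an in-frame stop codon and 38 held none but shifted the frame. Printed next, to show what retention would add to the coding sequence, are 14 introns of at most 150 bases, chosen among those described with their values in the paragraphs that follow and whose frame was read. Capitals mark the first and last 2 bases and, where there is one, the first in-frame stop codon; coordinates are GRCh38. These 6 keep the frame open, so that their retention would add amino acids:
GTPBP3, 96 bases, chr19:17339027-17339122, strand plus: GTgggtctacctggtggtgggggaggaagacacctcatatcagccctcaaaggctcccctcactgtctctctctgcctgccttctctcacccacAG
TAF1C, 78 bases, chr16:84181864-84181941, strand minus: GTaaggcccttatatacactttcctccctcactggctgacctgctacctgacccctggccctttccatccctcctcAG
HNRNPM, 117 bases, chr19:8465363-8465479, strand plus: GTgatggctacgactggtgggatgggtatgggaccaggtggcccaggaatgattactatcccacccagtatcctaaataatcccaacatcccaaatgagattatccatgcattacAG
ZNHIT6, 117 bases, chr1:85707937-85708053, strand minus: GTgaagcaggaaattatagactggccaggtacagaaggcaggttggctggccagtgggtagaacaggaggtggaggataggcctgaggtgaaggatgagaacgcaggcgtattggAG
RPL13, 141 bases, chr16:89561599-89561739, strand plus: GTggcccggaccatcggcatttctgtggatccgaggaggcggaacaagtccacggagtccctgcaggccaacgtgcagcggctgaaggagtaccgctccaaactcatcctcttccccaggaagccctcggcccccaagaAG
ZNF12, 114 bases, chr7:6692488-6692601, strand minus: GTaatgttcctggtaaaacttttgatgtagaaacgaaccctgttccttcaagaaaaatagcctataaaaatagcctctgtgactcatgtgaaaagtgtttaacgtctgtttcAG
These 8 hold a stop codon, marked in capitals, or, for EIF6 and CCNT2, shift the frame without one:
NSUN5, 75 bases, chr7:73303525-73303599, strand minus: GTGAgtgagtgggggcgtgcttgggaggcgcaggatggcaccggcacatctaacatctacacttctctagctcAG
MCM7, 75 bases, chr7:100099204-100099278, strand minus: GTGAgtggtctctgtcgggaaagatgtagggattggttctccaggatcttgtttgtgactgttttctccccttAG
ARL6IP4, 81 bases, chr12:122982539-122982619, strand plus: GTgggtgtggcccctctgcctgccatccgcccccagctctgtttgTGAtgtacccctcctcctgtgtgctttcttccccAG
STX10, 90 bases, chr19:13144487-13144576, strand minus: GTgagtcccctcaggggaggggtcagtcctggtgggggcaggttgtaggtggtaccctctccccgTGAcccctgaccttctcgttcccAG
ABCC3, 105 bases, chr17:50667758-50667862, strand plus: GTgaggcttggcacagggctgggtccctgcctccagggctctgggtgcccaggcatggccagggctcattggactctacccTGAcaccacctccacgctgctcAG
TAF1C, 128 bases, chr16:84181464-84181591, strand minus: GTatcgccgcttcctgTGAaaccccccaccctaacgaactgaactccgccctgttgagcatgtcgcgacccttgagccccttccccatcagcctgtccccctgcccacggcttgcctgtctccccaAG
EIF6, 119 bases, chr20:35284262-35284380, strand minus: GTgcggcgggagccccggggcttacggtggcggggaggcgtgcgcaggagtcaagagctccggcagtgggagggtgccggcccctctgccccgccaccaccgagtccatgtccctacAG
CCNT2, 101 bases, chr2:134954380-134954480, strand plus: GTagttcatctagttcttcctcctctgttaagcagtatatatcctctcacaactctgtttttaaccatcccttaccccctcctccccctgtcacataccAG
In NSUN5 and MCM7 the first stop codon overlaps the splice site, starting at base 2 of the intron. In ARL6IP4, STX10 and ABCC3 it starts at bases 46, 66 and 82, all in introns whose length is a multiple of 3.

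The libraries held 16327762 and 19903110 recovered fragments (control, then knockdown label), and the deposited FPKM were scaled to these totals. USP49 stood at 2.89 FPKM in control (interval 2.42 to 3.37) and 1.11 in the knockdown-labelled library (0.841 to 1.37), on models that differ in their ends between libraries, so that this sum does not compare like with like. Of 12 epithelial and colon markers, 8 were at 1 FPKM or more in each library, among them EPCAM and KRT19, while the intestinal markers VIL1, CDX1 and CEACAM6 were listed at 0 in both. Markers of blood, endothelium and fibroblasts were mostly at or near 0; COL1A1 was listed at 10.5 and 7.79 FPKM and CD68 at 9.38 and 0.

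Retention of an intron was the summed FPKM of models whose exon covers it, divided by that sum plus the FPKM of models with exactly this intron. The denominator is called the level. Of the 950 introns, 607 in 483 genes had a level of at least 1 FPKM in each library and were measured, 194 were at 0 in both libraries, and 149 were below the minimum in at least 1 of them. These introns were mostly in use in both forms or as the retained form. The median retention was 60.2% in control and 57.6% in the knockdown-labelled library. In both libraries 81 introns stood at 0%, with no covering model above 0, and 184 at 100%, with no model of exactly this intron above 0. A form that removes part of the same stretch with another splice site is not counted as spliced. A value of 100% therefore does not mean that the whole stretch was always kept.

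By length, the 88 measured introns under 100 bases had a median retention of 55.1% in control and 51.6% in the knockdown-labelled library. The 330 introns of 100 to 500 bases stood at 54.4% and 48.5%, and the 189 introns over 500 bases at 69.5% and 73.3%. In control the quartiles ran from 22.3% to 100%, 14.1% to 100% and 32.9% to 100% in these classes, far wider than the distance between the medians of the libraries. The median difference per intron was 0 in each class. In all, 169 introns were higher and 173 lower in the knockdown-labelled library, and 265 were equal. Across introns, which are not independent replicates and partly share genes and models, retention in both libraries correlated with r = 0.914 (Pearson) and rho = 0.909 (Spearman).

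**Figure D1:**
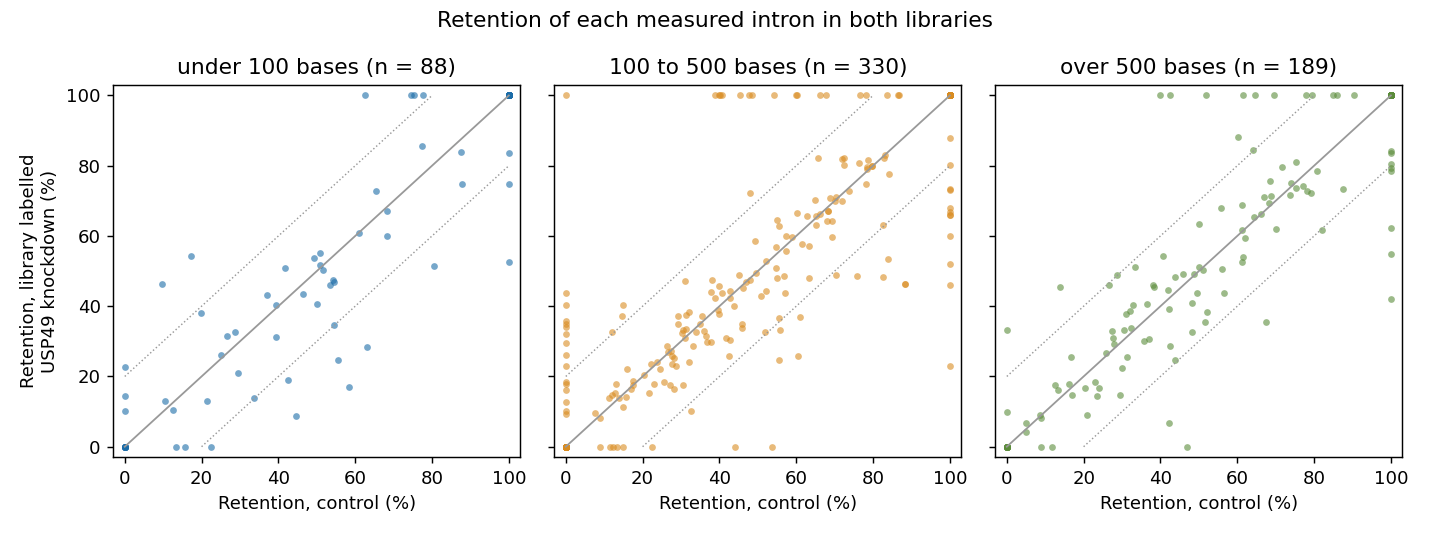
Retention of each measured intron in control (x axis, percent) and in the knockdown-labelled library (y axis, percent), 1 point per intron, in 3 length classes of 88, 330 and 189 introns. The solid line marks equal values and the dotted lines a difference of 20 points; most points lie between the dotted lines, and those outside are often at 0% or 100% in 1 library.

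A difference of 20 percentage points or more was used as the threshold of size. Retention was higher by this much in the knockdown-labelled library for 48 introns in 45 genes (7.91% of those measured), where 0.726% of all 116456 measured RefSeq introns and 0.688% of the 115849 others were, and lower for 42 introns in 39 genes (6.92%), where 0.728% of all and 0.696% of the others were. Most RefSeq introns cannot be compared directly, because without an annotated retained form they are covered only by assembled models, and 112652 of the others had 0% in both libraries. Among the 3197 of them with some coverage in at least 1 library, 24.9% were higher and 25.2% lower by 20 points or more. Of the 526 annotated introns with some coverage, 9.13% were higher and 7.98% lower. The numbers in both directions were thus close to each other in every one of these sets.

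The share of introns with any retention was counted next. The sets cannot be compared on it, because the rule gives annotated introns a covering RefSeq form and the others none. Of the annotated introns measured, 83.2% were above 0 in control and 84.4% in the knockdown-labelled library. Of RefSeq introns with no annotated retained form, 1.98% and 1.92% were. Among these latter introns the share was 7.61% in control for those under 100 bases, 4.67% for 100 to 500 bases and 0.87% for those over 500 bases, and 6.62%, 4.55% and 0.90% in the knockdown-labelled library. Short introns without an annotated retained form were thus more often covered by an assembled exon than long ones in both libraries.

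Introns under 100 bases divided into 7 higher (7.95%) and 9 lower (10.2%) past the threshold, where 2.88% and 3.59% of other RefSeq introns of this length were. NSUN5, a methyltransferase of ribosomal RNA, has a 75-base intron on chromosome 7 at 72355458 to 72355532 (hg18, as all coordinates from here on). In control its covering models summed to 11.7 FPKM and its spliced models to 7.05, a retention of 62.5% (55.8 to 68.7). In the knockdown-labelled library the spliced form was listed at 0 and the covering form at 18.8 FPKM, so retention was 100%. The intron of ARL6IP4, an SR-related splicing regulator, had a spliced form at 102.5 FPKM and a covering form at 11.01 in control, and 56.3 and 48.5 in the knockdown-labelled library, moving from 9.70% (7.83 to 11.7) to 46.3%. That value turned to −21.7 points with RefSeq models alone, and to 19.2 points with fragment numbers as weights in place of FPKM; 1 assembled model covered it in the knockdown-labelled library and none in control. RPS27A, which encodes ubiquitin fused to a ribosomal protein, went from 74.5% to 100%. Its covering form was at 12.6 and 12.7 FPKM and its spliced form at 4.298 and 0. The covering values rested on unlike models, with 174 fragments in control and 1061 in the knockdown-labelled library. There, 1 assembled model covered the RPS27A intron, and none did in control. RefSeq models alone gave no value for it in at least 1 library. For MTF2, a Polycomb-associated protein, the values were 75.4% and 100%, again with the spliced form listed at 0 in the knockdown-labelled library; with RefSeq models alone the difference was 0. GTPBP3, which modifies mitochondrial tRNA, has the open 96-base intron printed above. Its spliced form stood at 19.8 and 19.5 FPKM, and its covering form at 0 and 5.68, so retention was 0% and 22.6% (18.7 to 26.6). When models with no strand were also allowed to cover it, the GTPBP3 difference was 5.18 points, below the threshold.

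On the lower side of this class stood SCRIB, a cell polarity gene, at 58.3% and 17.0%. The RefSeq exon that covers its 68-base intron is the hairpin of MIR937, a microRNA, and 1 assembled model covered it in each library; with RefSeq models alone the difference was 0. SHROOM1 had 5.31 FPKM covering and 3.11 spliced in control, and 2.19 and 5.54 in the knockdown-labelled library, which is 63.1% and 28.3%; the difference was −15.9 points with RefSeq models alone. TAF1C, a factor of the RNA polymerase I promoter complex, has a member in 2 of the length classes. Its 78-base open intron stood at 80.4% (77.6 to 83.1) and 51.6% (48.4 to 54.7), and its 128-base intron, which holds a stop codon, at 82.7% and 48.4%. For both introns 2 assembled models were among the covering forms in control and none in the knockdown-labelled library. With RefSeq models alone the differences were 4.69 and −4.69 points. The readthrough locus STAG3L5P-PVRIG2P-PILRB stood at 100% and 74.9%, a difference that was −51.1 points with RefSeq models alone and −19.5 with fragment weights. DCAF11, a substrate receptor of a ubiquitin ligase, stood at 42.6% and 19.0%. Its difference turned to 5.95 points with RefSeq models alone, and was 0 with 25 bases required past both ends and −16.0 with fragment weights.

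**Figure D2:**
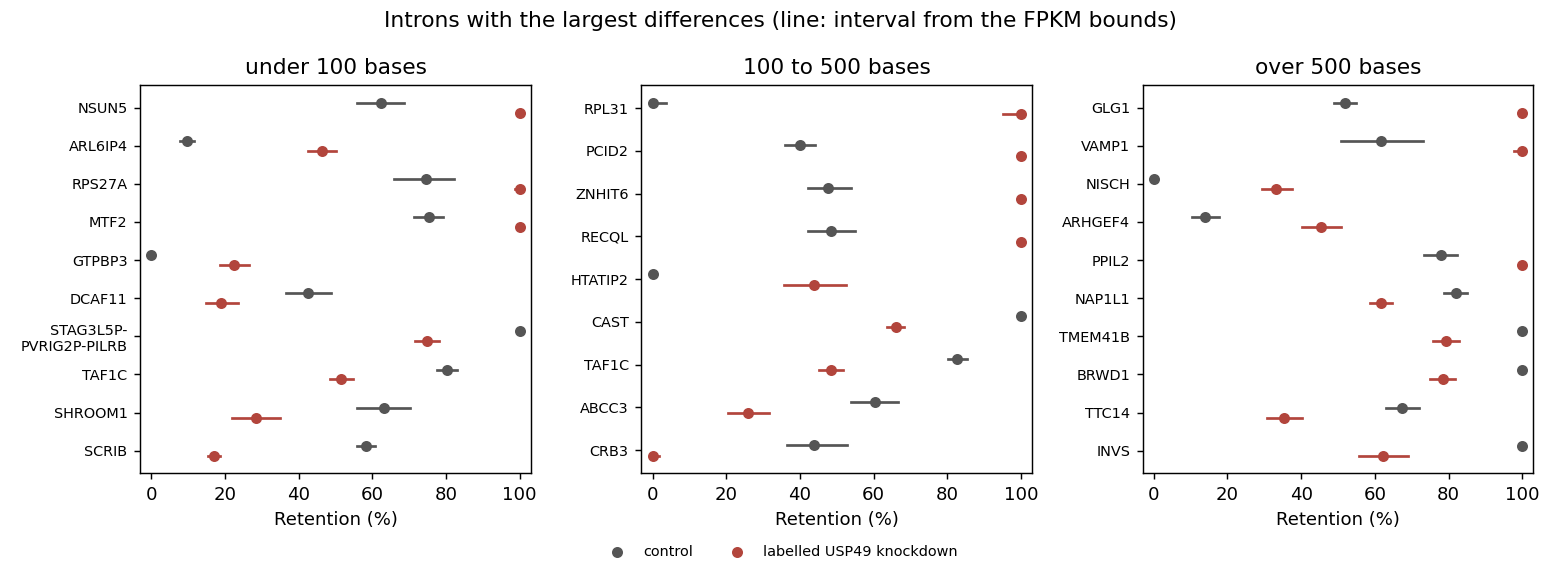
Retention in percent (x axis) for the named introns among those with the largest positive and negative differences, up to 5 in each direction and length class, control in grey and the knockdown-labelled library in red, with lines for the interval from the FPKM bounds. The intervals of the libraries do not overlap for any intron drawn, which was a condition of the choice; in several the red or grey point sits at 0% or 100%.

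Among introns of 100 to 500 bases, 28 (8.48%) were higher and 24 (7.27%) lower past the threshold, where 1.60% and 1.58% of other RefSeq introns of this length were. The highest difference was that of RPL31, a ribosomal protein gene, whose 278-base intron on chromosome 2 at 100988966 to 100989243 went from 0% to 100%. Its values were 6.996 FPKM, all spliced, in control and 7.03 FPKM, all covering, in the knockdown-labelled library, a total that hardly moved. For RPL31, 1 assembled model covered the intron in the knockdown-labelled library and none in control. RefSeq models alone gave no value for it in at least 1 library. PCID2, of the mRNA export complex TREX-2, went from 40.04% to 100% for its 197-base intron, while an overlapping PCID2 intron with the same covering forms went the other way, from 100% to 66.9%. In the knockdown-labelled library the 100% of the first PCID2 intron thus stood beside a spliced form of the overlapping one. ZNHIT6, an assembly factor of small nucleolar ribonucleoproteins, went from 47.7% to 100%. ZNHIT6 retained its open 117-base intron at 9.25 FPKM against 10.1 spliced in control, and at 17.0 against 0 in the knockdown-labelled library; the difference was 0 with RefSeq models alone and 18.1 points with fragment weights. The DNA helicase RECQL stood at 48.6% and 100% with covering forms at 6.43 and 8.59 FPKM. HTATIP2 had 13.7 FPKM of spliced and none of covering form in control, and 8.43 and 6.58 in the knockdown-labelled library, which is 0% and 43.8% (35.6 to 52.4).

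Lower in this class was CRB3, a polarity gene, at 43.9% (36.4 to 52.7) and 0%, with a spliced form at 8.92 and 9.92 FPKM. ABCC3, an efflux transporter, stood at 60.5% and 25.9% for the 105-base intron printed above. CAST, which encodes the calpain inhibitor calpastatin, went from 100% to 66.0%. In CAST the covering forms were at 62.2 and 54.4 FPKM, while a spliced form was listed at 0 in control and at 28.0 in the knockdown-labelled library. For CRB3 and CAST the difference was 0 with RefSeq models alone, and for CRB3 it was −81.2 points with fragment weights.

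Among introns over 500 bases, 13 (6.88%) were higher and 9 (4.76%) lower past the threshold, where 0.29% and 0.26% of other RefSeq introns of this length were. GLG1, a Golgi glycoprotein, had covering forms at 26.7 and 26.02 FPKM and a spliced form at 24.9 and 0, so its 1039-base intron stood at 51.8% (48.9 to 54.8) and 100%. VAMP1, a SNARE protein, went from 61.5% to 100%, and PPIL2, a cyclophilin, from 77.9% to 100%; with fragment weights these differences were 17.4 and 15.7 points, below the threshold. NISCH, which encodes nischarin, stood at 0% and 33.3% (29.3 to 37.4), and ARHGEF4, a guanine nucleotide exchange factor, at 13.8% and 45.4%. INVS, which encodes the ciliary protein inversin, went the other way from 100% to 62.3%, or by −16.3 points with RefSeq models alone. TTC14 had 13.6 FPKM covering and 6.57 spliced in control and 6.05 and 11.02 in the knockdown-labelled library, or 67.5% and 35.5%. BRWD1, a bromodomain protein, holds the longest intron of the set at 9080 bases and stood at 100% and 78.4%, a difference of −40.4 points with RefSeq models alone and −10.8 with fragment weights. TMEM41B, a lipid scramblase, had 100% and 79.4%, and NAP1L1, a histone chaperone, 82.1% and 61.7%; with RefSeq models alone NAP1L1 turned to 7.98 points and TMEM41B to 0, and with fragment weights TMEM41B was at −13.8 points.

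The large differences shared a feature of the assembly. Of the 48 introns that were higher, 27 reached 100% in the knockdown-labelled library and 12 started from 0% in control. Of the 42 that were lower, 17 were at 100% in control and 5 reached 0%. In 24 of the 48 and 15 of the 42 the covering forms themselves differed by less than 1.5-fold. The covering and spliced models above 0 FPKM had the same intron chains in both libraries for 300 of the 607 introns. Among these 300, 2 were higher and 1 lower by 20 points or more, and 84.3% lay within 5 points of no difference. This split is not independent of the differences. An intron at 0% or 100% in only 1 library always falls among those whose models differ. Of the 300, 64 were at 0% and 117 at 100% in both libraries, and 119 lay between in control. Among the 307 introns whose models differ, 46 were higher and 41 lower, and 42.7% lay within 5 points. Whether the assembly gave these differences or the RNA did was not tested.

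**Figure D3:**
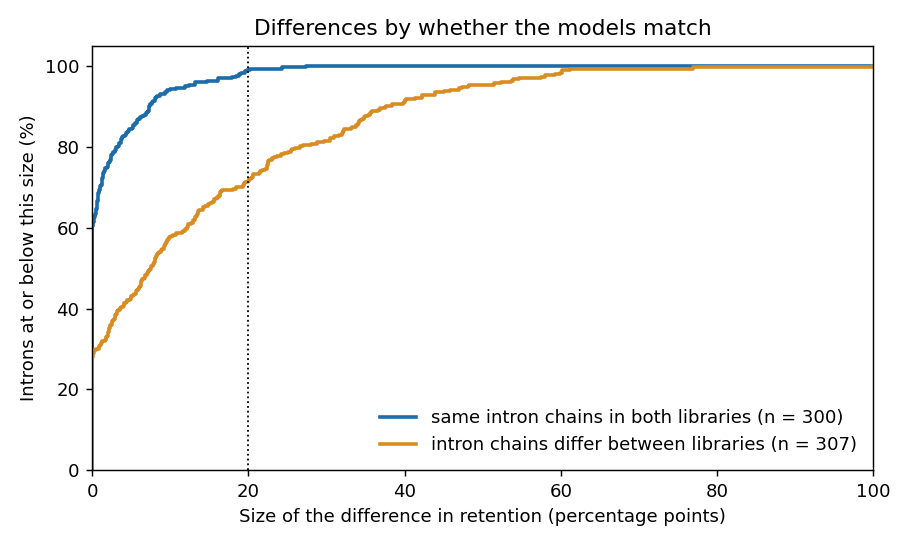
Share of introns (y axis, percent) whose difference in retention is at or below a given size (x axis, percentage points), for 300 introns with the same intron chains in both libraries (blue) and 307 whose chains differ (orange). The dotted line marks 20 points; 3 of the 300 and 87 of the 307 lie at or beyond it.

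The 3 introns past the threshold with matching models were TARS1, RBM19 and PRRT2; the latter 2 were named after their values were seen. TARS1, the cytosolic threonyl-tRNA synthetase, has a 254-base GC-AG intron on chromosome 5 at 33476655 to 33476908. Its covering forms summed to 76.2 FPKM in control and 91.1 in the knockdown-labelled library, and its spliced forms to 83.0 and 35.2. Retention was 47.9% (45.8 to 49.9) and 72.1% (70.2 to 74.0), from 3508 and 3586 fragments in control and 5109 and 1854 in the knockdown-labelled library. When the covering exon had to reach 25 bases past both ends, the difference for TARS1 was 0 points. RBM19, a protein of ribosomal RNA processing, had 4.66 FPKM covering and 11.5 spliced in control and 6.49 and 6.78 in the knockdown-labelled library, or 28.7% (23.9 to 34.0) and 48.9% (43.4 to 54.5). PRRT2, at a level of 2.83 FPKM in both libraries, went from 75.9% (62.8 to 88.0) to 48.5% (35.5 to 61.9).

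Introns at the highest levels with mean retention between 10% and 90% were compared next. MRFAP1 stood at 48.0% and 47.5% with covering forms at 114 FPKM in both libraries, and MDK, which encodes the growth factor midkine, at 13.9% and 13.7%. PTGES2, a prostaglandin E synthase, had 50.8% and 55.2%, and STX10, a SNARE protein, 10.5% and 12.9%, with overlapping intervals in both. ATP2A2, the calcium pump SERCA2, stood at 52.0% (50.2 to 53.9) and 38.4% (37.1 to 39.8), with a spliced form at 45.2 and 74.2 FPKM and a covering form at 49.0 and 46.3.

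The reading frame went with the level of retention in both libraries. The 55 measured introns that keep an open frame had a median retention of 87.6% in control and 100% in the knockdown-labelled library. The 210 with an in-frame stop codon stood at 42.4% and 40.5%, and the 24 that shift the frame without a stop at 60.6% and 54.5%. The order of open and stopped introns was the same within each length class: 56.3% against 21.5% in control under 100 bases, 93.4% against 34.4% at 100 to 500 bases, and 100% against 60.2% over 500 bases, where only 7 introns were open. Between libraries, 4 open introns (7.27%) were higher and 3 (5.45%) lower by 20 points or more. Of those with a stop, 17 (8.10%) were higher and 10 (4.76%) lower. These shares stand beside 7.91% and 6.92% of all measured introns. No test was made, since introns of 1 library are not replicates. RPL13, with its open 141-base intron at 28.2 and 27.9 FPKM, and the zinc finger gene ZNF12, with its open 114-base intron at 10.1 and 11.4 FPKM, were at 100% in both libraries. MCM7, a subunit of the replicative helicase, and EIF6, a ribosome anti-association factor, were at 0% in both, with spliced forms at 283 and 282 FPKM for MCM7 and at 184 in both for EIF6.

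**Figure D4:**
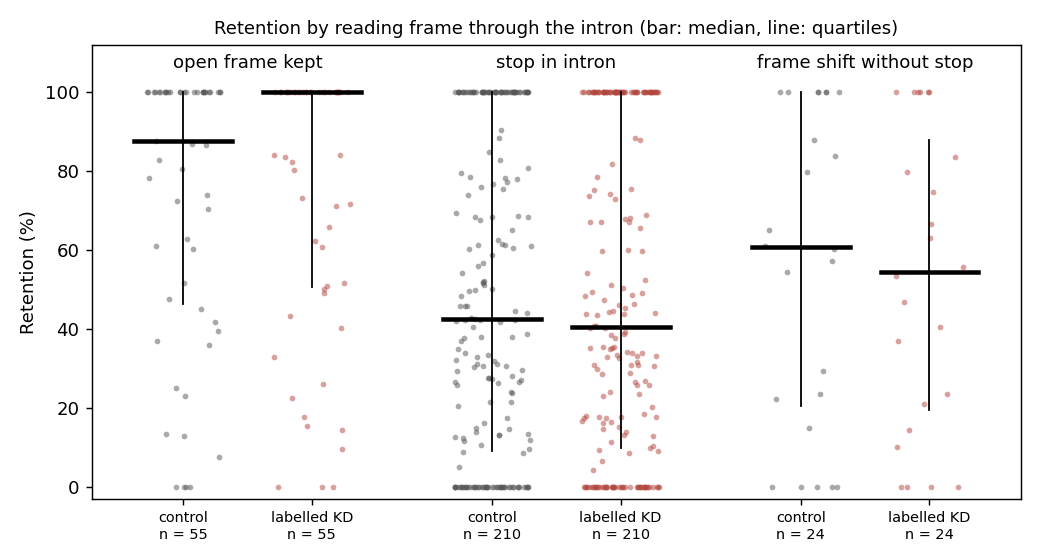
Retention in percent (y axis) of 55 introns that keep an open reading frame, 210 with an in-frame stop codon and 24 that shift the frame without a stop, in control (grey) and in the knockdown-labelled library (red, labelled KD); 1 point per intron, thick bar for the median, thin line for the quartiles. Medians are 87.6% and 100% for open introns and 42.4% and 40.5% for those with a stop.

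Other features went with smaller contrasts. Introns carried by a protein-coding RefSeq form (NM_) had median retentions of 63.3% and 64.4% (n = 542), and those carried by noncoding forms only (NR_) 30.6% and 24.7% (n = 65). Where the covering exon was the first of its transcript the medians were 48.3% and 46.1% (n = 208), where it was the last 67.5% and 66.9% (n = 289), and where it was internal 67.3% and 52.5% (n = 82). Introns covered in a first exon counted 22 higher (10.6%) and 10 lower (4.81%) past the threshold, those in an internal exon 4 (4.88%) and 10 (12.2%), and those in a last exon 19 (6.57%) and 21 (7.27%), beside 7.91% and 6.92% of all measured; the differences between these groups were not tested. Median GC content was 60.3% for introns under 100 bases, 58.5% for 100 to 500 and 49.9% for those over 500. Introns with mean retention over 90% had a median GC content of 53.8% (n = 169), against 59.0% (n = 91) for those under 10%. The former were also longer, with a median of 339.5 bases (n = 196) against 191 (n = 105). Whether GC content went with retention apart from length was not tested.

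Genes that make the splicing machinery were described next, from lists of gene names. Counts in these lists stand beside 169 higher and 173 lower of all 607 introns, 7.91% and 6.92% past the threshold. Of 8 measured introns in SR protein and kinase genes 5 were higher and 2 lower, none by 20 points. SRSF2, an SR protein, has overlapping introns in its last exon: the 995-base intron stood at 28.0% and 29.4%, with 72.7 and 76.6 FPKM covering and 187 and 184 spliced. SRSF1 stood at 100% in both for its 921-base intron (165 and 167 FPKM) and at 14.8% and 0% for its 200-base intron. CLK1, a kinase of SR proteins, retained its 378-base intron at 30.6% (24.9 to 36.9) and 33.1% (27.6 to 39.2), with 4.60 and 4.74 FPKM covering. Its 1022-base intron had the same values. A 1491-base CLK1 intron that spans the 378-base one went the other way, from 42.4% to 28.7%, with overlapping intervals. The 3 introns in snRNP and spliceosome genes comprised LUC7L3, of the U1 group, at 38.3% (36.3 to 40.4) and 45.4% (43.5 to 47.3), LUC7L at 8.81% and 0%, and USP39, a tri-snRNP protein, at 71.9% and 69.8%.

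Of 8 introns in hnRNP and other regulators, a list that also holds the 3 of SRSF2, 5 were higher and 3 lower. HNRNPM stood at 45.1% and 49.0%, where the control interval reached from 0% to 100%; its difference cannot be read. PSPC1, a paraspeckle protein, had 73.7% and 72.8%, and HNRNPLL 41.7% and 31.0%. The 1 intron past the threshold was in QKI, an RNA-binding regulator, at 42.2% and 6.66%, on a covering form of only 0.50 and 0.89 FPKM. Its spliced form was at 0.68 and 12.5 FPKM, so the covering form itself was not lower in the knockdown-labelled library. Another QKI intron, of 3898 bases with the same covering values, stood at 5.06% and 6.66%, with a spliced form at 9.34 and 12.5 FPKM. Of ubiquitin-specific proteases, USP20 stood at 35.3% and 37.2%, beside USP39, and of mRNA export and decay genes, NXF1, the main export receptor, at 16.1% and 18.0% for its 1801-base intron. MED8, MED22 and MED23, of the Mediator complex, were at 100% in both libraries, and CCNT2, a cyclin of P-TEFb, at 60.3% and 66.6%.

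Of 9 introns in ribosomal protein genes 3 were higher, RPL31 and RPS27A past the threshold among them, 1 was lower and 5 equal. RPL17 and RPL41 were at 100% and RPL28 at 0% in both. Ribosomal protein genes have many processed copies, which makes their values uncertain. In the respiratory chain and mitochondrial ribosome list 2 of 17 were past the threshold, both overlapping introns of MRPS12, at 0% in control and 29.6% and 35.7% in the knockdown-labelled library. ATP5IF1 had 4.99% and 4.28%, ATP5F1D 43.7% and 40.1%, MRPS21 31.2% and 37.6%, and ATP5MC3 0% in both. EEF1B2, a translation elongation factor, stood at 78.5% and 79.1%, and EARS2 at 100% in both, beside TARS1 and EIF6 above.

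In genes with a ZNF symbol 5 of 12 introns were higher, 3 of them past the threshold, 1 was lower and 6 were equal. This list also holds the antisense RNA ZNF436-AS1, whose introns are among the equal ones. The 3 were in ZNF248 (17.3% and 54.2%), ZNF438 (64.2% and 84.4%) and ZNF580 (45.3% and 100%), named after their values were seen, at levels of 1.69 to 6.51 FPKM. ZNF83 stood at 77.3% and 85.5%, and ZNF74 and ZNF767P at 100% in both. Of 11 introns in solute carrier genes 4 were higher and 2 lower. The 1 past the threshold, named after its values were seen, was in SLC46A3, at 60.2% (39.7 to 81.6) and 88.3% (73.5 to 99.3). SLC25A3, the mitochondrial phosphate carrier, had 8.96% and 0%, SLC41A3 84.9% and 100%, SLC5A6 100% and SLC25A1 0% in both. Small nucleolar RNA host genes had none higher and 4 of 5 lower, none of them by 20 points, with SNHG7 at 51.9% and 32.5%, SNHG8 at 54.7% and 50.9%, SNHG10 at 31.2% and 25.5%, and SNHG29 at 0% in both. In replication, repair and cell cycle genes none of 12 introns was past the threshold: POLE3, a DNA polymerase subunit, stood at 15.6% and 14.2%, and MCM4 and MCM7 at 0%. Among apoptosis genes, MCL1, a survival protein of the BCL2 family, had 72.4% (70.1 to 74.6) and 80.2% (78.5 to 81.8) for its open GC-AG intron of 459 bases, TNFRSF10B, a death receptor, 61.1% and 60.8%, and BAD, which promotes cell death, 0% in both. DDX11L2, the single helicase-like entry, is a transcript with near-identical copies and stood at 69.5% and 100% on a level near 1 FPKM.

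The level of the introns was compared last. Of 626 introns with a mean level of 1 FPKM or more, 12 (1.92%) were 2-fold or more higher in the knockdown-labelled library, where 1.99% of all 120835 RefSeq introns were, and 13 (2.08%) lower, where 2.12% of all were. The median log2 ratio, with a pseudocount of 1, was −0.02 for these introns and 0.0031 for all. Both shares were near the background, so the level of these transcripts did not stand apart from that of other RefSeq introns.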

How the data were processed

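Poly(A) RNA of 1 control culture and 1 culture labelled USP49 knockdown was sequenced. Per the submitters' processing notes, TopHat, Bowtie, SAMtools, Picard, Cufflinks and bedtools were used on build hg18; no versions were listed there. The deposited files are Cufflinks assemblies per library, guided by RefSeq. Per the file columns, the authors gave each model a score, not used here, and a value named FPKM with interval bounds, the other measurement deposited by the authors. In loci with 1 model, the interval read as ± 2 Poisson SD gave a whole fragment number, within 0.02, for 94.9% (control) and 94.5% of loci. The value was that number over 2 × (length − 47 bases), within 1% for 95.8% of RefSeq models in each library, with no term for depth; values were therefore scaled to recovered totals. The design had assumed depth-scaled FPKM.

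Covering and spliced models were taken on the same strand; half-widths of FPKM intervals were added in quadrature, a side listed at 0 was allowed 3 fragments, and the interval of retention joins the lowest covering with the highest spliced bound and the reverse. Named introns followed a rule: in each length class the 5 highest and 5 lowest differences at 5 FPKM or more in both libraries with intervals apart, the 3 of highest level between 10% and 90%, and up to 4 genes of each of 15 lists; a few introns that the rule names are not reported here. Members and lists were chosen with earlier results of these data known. Symbols came from a GRCh38.p14 RefSeq table by accession. The calculation was tested on simulated data, in Python 3.11.15 with pandas 2.3.3 and scipy 1.17.1. The simulated loci had the same models in both libraries, so this check says nothing on introns whose models differ between them.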

Additional observations from a re-analysis of the deposited data

How the results depend on the processing

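Counting error limits introns at low level, and each value also rests on the models of its library; 2 libraries give no spread between replicates. The 48 higher and 42 lower introns became 30 and 22 of 483 at a minimum of 5 FPKM, and 8 and 10 of 257 at 20 FPKM. They became 30 and 27 at a threshold of 30 points, and 2 and 1 with matching intron chains, which leaves 300 introns. At 10 points 68 were higher and 79 lower. Median retention in control at 100 to 500 bases moved to 46.0% at 5 FPKM, 45.9% at 20 FPKM, 48.0% with RefSeq models alone and 43.8% with 1 intron per gene. Over 500 bases it moved to 61.3% in control and 59.5% in the knockdown-labelled library at 20 FPKM, and to 78.1% in control with fragment numbers as weights. Introns 2-fold higher and lower in level became 43 and 40 of 585 with RefSeq models alone, and 7 and 5 of 505 at a mean of 5 FPKM. The level of all RefSeq introns was not run under these settings. Other RefSeq introns past the threshold became 496 higher and 514 lower of 92150 at 5 FPKM. Among the named introns past the threshold, 10 of 24 that RefSeq models alone could measure stayed past it in the same direction. So did 24 of 32 with fragment weights and 28 of 31 with 25 bases past both ends. With models of no strand, 31 of 32 did. RefSeq models alone gave no value in at least 1 library for these introns of NSUN5, RPS27A, RPL31, PCID2, NISCH, ARHGEF4, PPIL2 and TTC14. The direction turned with RefSeq models alone for ARL6IP4 (−21.7 points), the 78-base intron of TAF1C (4.69), DCAF11 (5.95) and NAP1L1 (7.98), and for ARL6IP4 with 25 bases past both ends (−9.70); the cause was not tested. No paired analysis was possible because each group has 1 library. Leaving out introns under 50 bases left 48 higher and 42 lower. Keeping only introns covered by a form of the same gene left 42 and 35 of 565. The latter setting also drops introns whose covering form has no symbol and no shared gene, such as that of ARL6IP4. Both settings were chosen after seeing the data. Levels, other introns and named introns were not run under these.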

Other observations

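The shortest measured introns of the set stood only as covering forms in these assemblies. All 7 measured introns under 50 bases stood at 100% in both libraries, with no spliced model above 0. Among them was the 26-base intron of XBP1, a transcription factor of the unfolded protein response whose mRNA is known to lose it by IRE1 cleavage in the cytoplasm rather than by the spliceosome. The XBP1 forms summed to 48.2 and 50.6 FPKM (control, then the knockdown-labelled library), from 1395 and 1787 fragments, all on forms with the intron. Of the 5 introns of 50 to 69 bases 3 were at 100% in both and 2 had a spliced model above 0, as had 23 of 29 introns of 70 to 84 bases. Whether the alignment could place reads across such short gaps was not tested.

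The 3 AT-AC introns, whose ends are those of a class removed by the minor spliceosome, did not differ between the libraries. Among them DAZAP2 (66 bases) was at 100% and CIAO2B (156 bases) at 0% in both. In 5 members a small RNA gene lies inside the intron. MIR17HG, the host of the miR-17 cluster, stood at a level of 2.79 and 2.45 FPKM, and RPS3A, host of SNORD73A, at a retention of 90.4% and 100%.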
